A study of Mus musculus with 5 samples.

Results

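The genes described here encode secretory proteins of the mouse prostate lobes: Pbsn, Msmb, Tgm4, Tcaf3, Azgp1, Sbp and Sbpl. They were chosen by symbol, and each symbol was matched to its Ensembl identifier, which gave 7 of the 51912 genes listed. Expression was measured by total RNA sequencing of dorsolateral prostate from male mice aged 3 months. The 2 libraries labelled as Ghr deletion, called deletion-labelled below, came from mice with loxP-flanked alleles of the growth hormone receptor gene (Ghrflox/flox) and an inducible Cre at ROSA26 (ROSA26Cre-ERT2+/0). The 3 tamoxifen-control libraries came from Ghrflox/flox mice without Cre. Mice of both groups received tamoxifen at 250 mg/kg once a day for 5 days, and glands were collected 1 month later. ROSA26 is active in most cell types, so Cre was not limited to prostate epithelium, and the presence of Cre and the deletion cannot be told apart in this design.

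The mouse prostate consists of several paired lobes around the urethra, and the luminal cells of each lobe release a different mixture of proteins into the seminal fluid. Many of these genes need androgen signalling through the androgen receptor, and their transcripts are abundant in a mature gland. Probasin (Pbsn) is a secreted lipocalin whose promoter is widely used to direct transgenes to prostate epithelium. Transglutaminase 4 (Tgm4) crosslinks seminal vesicle proteins when the copulatory plug forms. Msmb encodes beta-microseminoprotein, a small cysteine-rich protein that is a major product of the human prostate. Tcaf3 belongs to the family of TRPM8 channel-associated factors and is also named Eapa2. Azgp1 encodes zinc-alpha-2-glycoprotein, a soluble relative of MHC class I molecules. Sbp encodes spermine-binding protein, an androgen-regulated secretion first studied in the ventral prostate, and Sbpl encodes a protein like it.

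Promoter sequence is shown for Tgm4, the most abundant of the genes by mean TPM, and for the mouse probasin gene Pbsn. It is taken from the 250 bases before the RefSeq start site (RefSeq, GRCm38.p6) and cut where the first exon of the gene begins in GENCODE M21, because the GENCODE start lies further upstream. The stretches are chr9:123034491-123034725 on the plus strand for Tgm4 and chrX:77853624-77853750 on the minus strand for Pbsn, and capitals mark the TATA box TATAAA.
Tgm4: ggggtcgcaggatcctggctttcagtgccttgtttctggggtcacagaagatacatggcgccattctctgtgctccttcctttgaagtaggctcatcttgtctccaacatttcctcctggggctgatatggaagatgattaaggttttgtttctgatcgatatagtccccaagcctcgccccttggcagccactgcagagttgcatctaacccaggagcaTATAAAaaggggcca
Pbsn: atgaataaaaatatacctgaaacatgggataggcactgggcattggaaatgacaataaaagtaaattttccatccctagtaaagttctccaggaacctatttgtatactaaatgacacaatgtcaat

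The Tgm4 window held TATAAA with its first base at position -30 from the RefSeq start site. The Pbsn window held the hexamer AGAACA, which androgen and glucocorticoid receptors bind, at -95 and TATAAA at -59, but 123 of its 250 bases, both motifs included, lie in exons of Pbsn in GENCODE and are not shown. Of the Tcaf3 window 209 bases lie in a GENCODE exon of Tcaf3, none of it is shown, and it held neither motif. Sbpl had TATAAA at -30, and 1 of 3 Sbp windows had the reverse complement TGTTCT at -64, inside a GENCODE exon. AGAACA, searched on both strands, occurred in 16.1% of the 32851 RefSeq windows of the same length, and TATAAA, searched on the strand of the gene, in 7.59%. The palindromic androgen response element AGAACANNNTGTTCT and the forkhead motif TGTTTAC (both strands) were in 0 of the 8 windows of these genes, and in 0.00913% and 3.17% of all windows. A match is a description of the letters only. Windows were found for 6 of the 7 genes, and Msmb had none in the table.

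Depth was 31740687 and 32782683 expected counts in the deletion-labelled libraries, against 19517831 to 41553558 in the controls. The signal recognition particle RNA genes Rn7s1 and Rn7s2 took 3.76% and 6.35% of counts in the deletion-labelled libraries, against 9.23%, 32.9% and 9.49% in control replicates 1 to 3. Protein-coding genes held 88.3% and 84.1% of counts in the deletion-labelled libraries, against 85.2%, 48.5% and 83.5% in the controls. Ghr, counted over the whole gene, had 21.5 and 10.2 CPM (the read count relative to the TMM-scaled library size) in the deletion-labelled libraries and 10.1, 11.8 and 13.2 CPM in the controls, so these counts do not show whether it was deleted.

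The labelled tissue was first set against these prostate secretions. Together the 7 genes had 2.03 and 108.5 TPM in the deletion-labelled libraries, against 25.7, 468.8 and 3.29 TPM in control replicates 1 to 3. This was 0.000458% and 0.0276% of the TPM of all protein-coding genes in the deletion-labelled libraries, against 0.0054%, 0.388% and 0.000989% in the controls. Control replicate 2 therefore held the most by both measures, and Ghr deletion replicate 1 the least. By TPM among 21793 protein-coding genes, Tgm4 ranked 11889 and 435 in the deletion-labelled libraries, against 5394, 29 and 10611 in the controls. In control replicate 2 Tcaf3 ranked 30, Pbsn 34 and Msmb 99, and in no other library did any of the 7 reach the 100 most abundant. Tgm4, Tcaf3, Pbsn and Msmb were thus abundant in control replicate 2, where Azgp1 ranked 1878, Sbp 10523 and Sbpl 14395. All 7 were near the middle of the ranking or below it in Ghr deletion replicate 1 and control replicate 3, although all 5 libraries carry the same tissue label. In whole tissue, fewer cells of a type and less RNA per cell cannot be told apart.

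**Figure D1:**
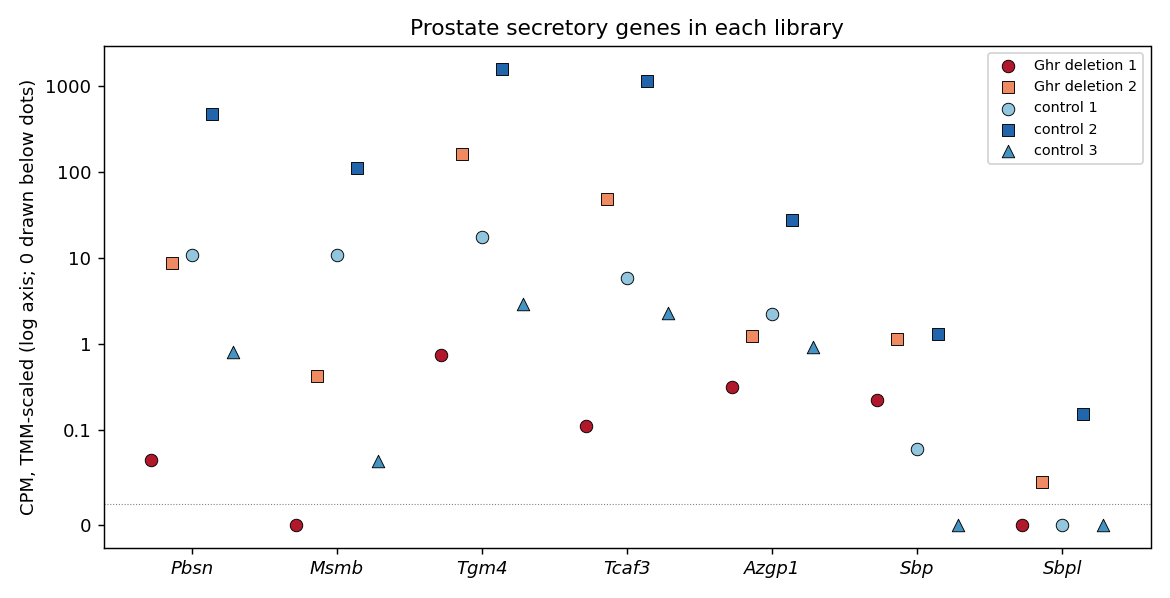
Level of each of the 7 genes in every library, in CPM on a log axis with zeros drawn below the dotted line. Red and orange symbols are the deletion-labelled libraries, blue symbols the controls. On this scale control replicate 2 (dark blue squares) is highest for every gene, and the groups overlap for every gene.

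No gene of the set was called. Of 6 genes that passed the filter on low counts, 0 were higher and 0 were lower in the deletion-labelled libraries by the quasi-likelihood test of edgeR at a threshold of 0.05 on the adjusted p, where 0% of 18590 tested genes were called in each direction. At an unadjusted p under 0.05 there was 1 lower and 0 higher, beside 3.1% and 1.16% of all tested genes. By DESeq2 0 of the 6 were called, beside 0.349% lower and 0.114% higher among all genes with an adjusted p, and it gave no p for Pbsn, Tgm4 and Tcaf3. The groups did not overlap for 0 of the 6, beside 12.5% of tested genes that were lower and 10.8% that were higher without overlap. The median log2 fold change of the 6 was -3.84, against -0.01 over all tested genes, and leaving out control replicate 2 gave 1.11 and leaving out Ghr deletion replicate 2 gave -10.57. A test of a single value over 2 against 3 libraries cannot give a two-sided exact p below 0.2.

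Tgm4, the transglutaminase of the copulatory plug (ENSMUSG00000025787, GRCm38 chromosome 9, 123034726 to 123067561), was the most abundant of the genes by mean TPM. It had 0.749 and 162 CPM in the deletion-labelled libraries, against 17.9, 1604 and 2.93 CPM in control replicates 1 to 3. Ghr deletion replicate 2 was thus second only to control replicate 2 and stood above the other controls, while Ghr deletion replicate 1 was lowest. The means were 81.4 ± 114 CPM (SD, n = 2) with the deletion label and 541.7 ± 920.2 CPM (SD, n = 3) in controls. The log2 fold change was -2.73 (SE 2.92, 95% interval -9.94 to 4.47; edgeR adjusted p = 0.88), and it was 3.00 without control replicate 2.

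Part of the Tgm4 count depends on how reads were shared. The last exons of Tgm4 lie over exons of Zdhhc3, a palmitoyltransferase gene on the opposite strand, and the longest Tgm4 transcript of 2785 bases matches a Zdhhc3 transcript at 100% over 830 bases. A predicted gene on the same strand, Gm49323, matches it over 308 bases and had an expected count of 0 in all 5 libraries. The expected counts of Tgm4 and Zdhhc3 were fractions that added up to whole numbers in all 5 libraries, for example 33.21 and 2746.79 in Ghr deletion replicate 1, which add to 2780. Zdhhc3 itself was even, with 62.3 and 70.5 CPM in the deletion-labelled libraries and 81.7, 78.7 and 63.3 CPM in the controls. The deposited effective length of Tgm4 was 729 and 1992 bases in the deletion-labelled libraries, against 1869, 2020 and 1491 bases in the controls. The low Tgm4 values of Ghr deletion replicate 1 and control replicate 3 are therefore uncertain, because antisense reads and Tgm4 reads were divided by a model there.

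Tcaf3, the gene of the TRPM8-associated factor family (ENSMUSG00000018656, chromosome 6, 42584866 to 42597692), followed the same order. It had 0.113 and 49.7 CPM in the deletion-labelled libraries, against 5.99, 1167 and 2.32 CPM in control replicates 1 to 3. Control replicate 2 was 23.5 times the next library, which was Ghr deletion replicate 2. The means were 24.9 ± 35.1 CPM (SD, n = 2) and 391.7 ± 671.2 CPM (SD, n = 3) in controls. The log2 fold change was -3.97 (SE 3.24, 95% interval -11.96 to 4.01; adjusted p = 0.874 by edgeR), and it was 2.62 without control replicate 2. Its closest relative by transcript, Tcaf2, matched at 81.9% over 842 bases, and every Tcaf3 count was whole.

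Pbsn, the lipocalin probasin (ENSMUSG00000000003, chromosome X, 77837901 to 77853623), had 0.0454 and 8.76 CPM in the deletion-labelled libraries, against 11.1, 475.1 and 0.816 CPM in control replicates 1 to 3. These values rest on 2 and 347 reads in the deletion-labelled libraries, and on 180, 9248 and 37 reads in the controls. Control replicate 2 was 42.8 times control replicate 1, and control replicate 3 was in the range of the deletion-labelled libraries. The means were 4.4 ± 6.16 CPM (SD, n = 2) and 162.3 ± 270.9 CPM (SD, n = 3) in controls. The log2 fold change was -5.21 (SE 3.06, 95% interval -12.74 to 2.33; adjusted p = 0.874 by edgeR). Leaving out control replicate 2 gave -0.41, and leaving out Ghr deletion replicate 2 gave -11.67.

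Msmb, which encodes beta-microseminoprotein (ENSMUSG00000021907, chromosome 14, 32142023 to 32158370), had 0 and 0.429 CPM in the deletion-labelled libraries, against 11.1, 112.4 and 0.0441 CPM in control replicates 1 to 3. Ghr deletion replicate 1 held 0 reads, which allows up to 0.0681 CPM at a floor of 3 counts, and control replicate 3 held 2 reads. Control replicates 1 and 2 were thus well above the other 3 libraries. The means were 0.215 ± 0.303 CPM (SD, n = 2) and 41.2 ± 61.9 CPM (SD, n = 3) in controls. Msmb was the gene below the unadjusted threshold, with a log2 fold change of -7.60 (SE 3.07, 95% interval -15.16 to -0.03, adjusted p = 0.874 by edgeR). Without control replicate 2 the log2 fold change was -4.68, and without Ghr deletion replicate 2 the remaining deletion-labelled library was at 0, so no fold change is given.

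Azgp1, which encodes zinc-alpha-2-glycoprotein (ENSMUSG00000037053, chromosome 5, 137981520 to 137990233), had a narrower range. It had 0.318 and 1.26 CPM in the deletion-labelled libraries, against 2.28, 27.8 and 0.926 CPM in control replicates 1 to 3. Outside control replicate 2 all libraries stayed under 3 CPM, and Ghr deletion replicate 2 lay above control replicate 3. The means were 0.790 ± 0.668 CPM (SD, n = 2) and 10.3 ± 15.1 CPM (SD, n = 3) in controls, with a log2 fold change of -3.71 (SE 1.69, 95% interval -7.86 to 0.45; adjusted p = 0.874 by edgeR). It was -0.99 without control replicate 2.

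The spermine-binding protein genes were close to the limit of detection. Sbp (ENSMUSG00000024128, chromosome 17, 23941672 to 23945607) had 0.227 and 1.16 CPM in the deletion-labelled libraries, against 0.0617, 1.34 and 0 CPM in control replicates 1 to 3. It was the only gene of the 6 with a positive log2 fold change, 0.62 (SE 1.71, 95% interval -3.59 to 4.83; adjusted p = 0.942 by edgeR), which was -0.98 without Ghr deletion replicate 2, -0.06 without control replicate 3 and 5.04 without control replicate 2. Sbpl (ENSMUSG00000024125, chromosome 17, 23953084 to 23955274) did not pass the filter on low counts. It had 0 and 1.02 expected counts in the deletion-labelled libraries, against 0, 3.02 and 0 in the controls. Sbp and Sbpl lie on opposite strands of the same chromosome and match at 88.1% over 833 bases, and their fractional counts added to 47 in Ghr deletion replicate 2 and 29 in control replicate 2. The split between the pair is therefore uncertain, but their sum was also low in every library.

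**Figure D2:**
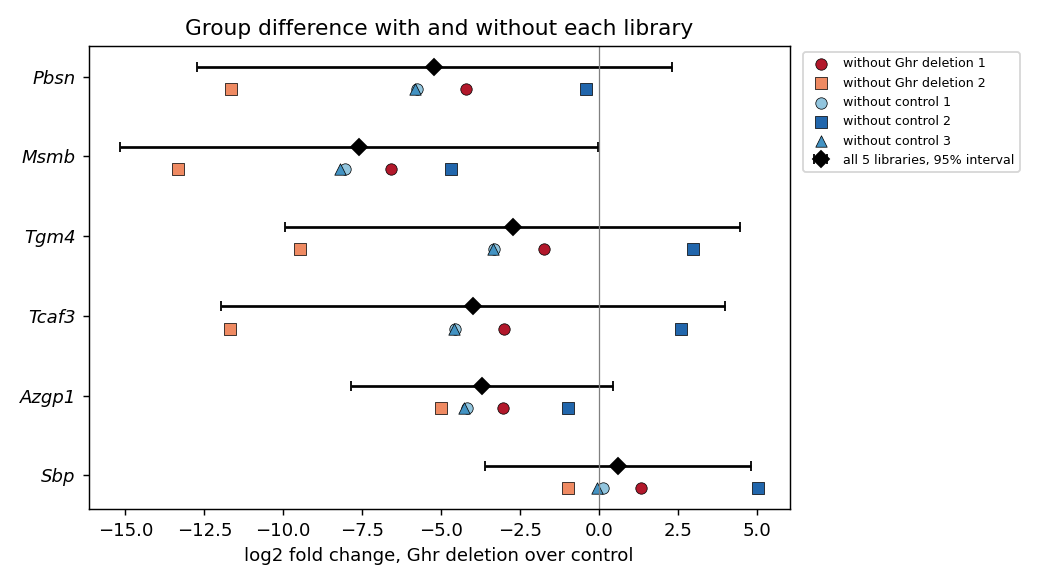
Log2 fold change of each tested gene, deletion-labelled libraries over controls. Black diamonds with bars are the values over all 5 libraries with 95% intervals, and coloured symbols leave out 1 library each. The intervals of all genes but Msmb include 0, Tgm4 and Tcaf3 lie above 0 without control replicate 2 (dark blue squares), and Sbp changes sign with the library left out. The Msmb value without Ghr deletion replicate 2 is set by a library at 0 and is no bound.

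The spread within each group was as wide as the differences between them. In TMM-scaled CPM all 6 tested genes were highest in control replicate 2, as were 32.9% of all tested genes. In TPM this held for 5 of the 6 (1.52% of tested genes), and Sbp was highest in Ghr deletion replicate 2. In control replicate 2 all 6 exceeded 10 times the CPM of each other control, which held for 1.18% of tested genes, but in TPM only Pbsn, Tgm4 and Tcaf3 did (0.624% of tested genes). All 6 were higher in Ghr deletion replicate 2 than in replicate 1 in both units, as were 52.7% of tested genes in CPM and 17.8% in TPM. The excess was over 5 times for 5 of the 6 in CPM, which held for 1.67% of tested genes, and for 4 of the 6 in TPM, which held for 1.26%. The choice of library and the cutoffs of 10 and 5 times were not planned, so these counts are a description only. In CPM Msmb in control replicate 2 was 10.1 times control replicate 1, and Sbp in Ghr deletion replicate 2 was 5.12 times replicate 1, just above the cutoffs. Among the 5 genes with reads in both deletion-labelled libraries, the CPM ratio between them was largest for Tcaf3, at 438 times, and smallest for Azgp1, at 3.97 times; Msmb was at 0 in one of them and has no ratio. Control replicate 2 also held the largest share of Rn7s1 and Rn7s2 counts and of counts annotated as ribosomal RNA (2.54% and 3.63% in the deletion-labelled libraries, against 1.88%, 13.9% and 2.38% in the controls), and the part of this in the result was not tested.

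The mixture of the transcripts also differed between libraries, in levels per transcript length (TPM). Tgm4 made up 57.1% and 62.7% of the summed TPM of the 7 genes in the deletion-labelled libraries, against 15.0%, 30.9% and 34.7% in control replicates 1 to 3. Pbsn made up 3.94% and 9.95% in the deletion-labelled libraries, against 25.7%, 26.2% and 21.3% in the controls. Msmb made up 0% and 0.95% in the deletion-labelled libraries, against 50%, 11.7% and 2.43% in the controls, and was the largest part in control replicate 1. Tcaf3 made up 3.45% and 24.0% in the deletion-labelled libraries, against 5.34%, 30.0% and 25.5% in the controls. The sum in Ghr deletion replicate 1 rests on 64 reads and that in control replicate 3 on 319, so these shares carry a wide counting error. The Tgm4 share also depends on its effective length, which was shortest in Ghr deletion replicate 1. With the median effective length of 1869 bases used in every library, a choice made after seeing the data, it was 34.2% and 64.2% in the deletion-labelled libraries, against 15.0%, 32.6% and 29.7% in the controls.

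**Figure D3:**
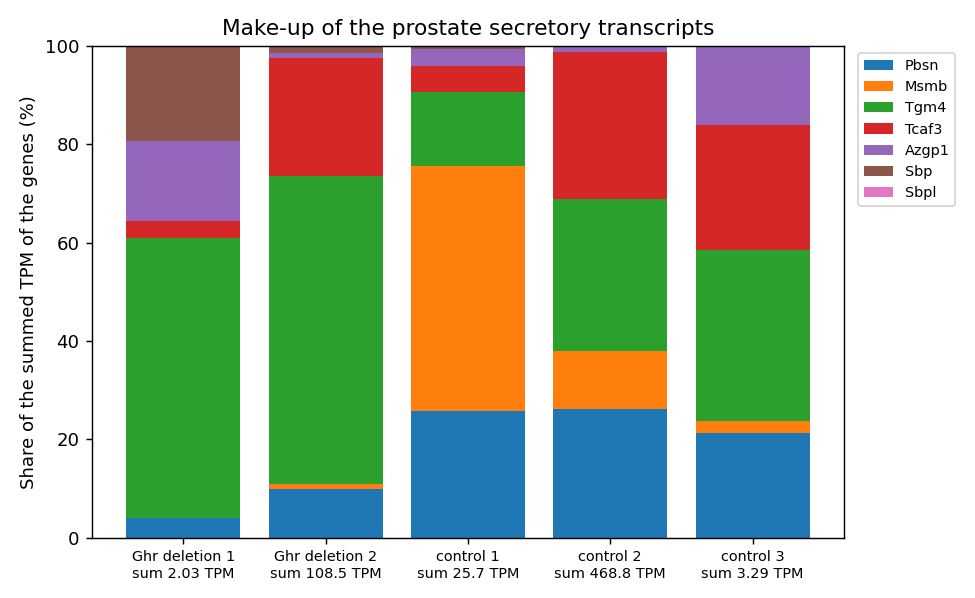
Share of each gene in the summed TPM of the 7 genes, as stacked bars for each library, with the sum below each bar. Tgm4 (green) is the largest part in both deletion-labelled libraries and in control replicates 2 and 3, and Msmb (orange) is the largest in control replicate 1.

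Ratios of counts within a library do not depend on the scaling between libraries. Of 15 pairs among the 6 tested genes, a ratio could be formed in every library for 7, and 2 of these did not overlap between groups. Among all tested genes taken singly, 10.8% were higher and 12.5% lower without overlap, and no such share was computed for pairs. These pairs were singled out after their values were seen, no test was made, and 2 of 7 is read as a description only. Reads of Tgm4 were 16.5 and 18.5 times those of Pbsn in the deletion-labelled libraries (95% counting intervals 4.22 to 142 and 16.6 to 20.7), against 1.61, 3.38 and 3.59 times in control replicates 1 to 3 (intervals 1.33 to 1.95, 3.30 to 3.46 and 2.48 to 5.32). Reads of Tgm4 were 6.60 and 3.26 times those of Tcaf3 in the deletion-labelled libraries (intervals 2.56 to 21.7 and 3.10 to 3.43), against 2.99, 1.38 and 1.27 times in the controls. The interval of control replicate 1, 2.37 to 3.80, overlapped both, so this pair was not separate within counting error. For Tgm4 to Pbsn, the interval of Ghr deletion replicate 1, 4.22 to 142, overlapped that of control replicate 3, 2.48 to 5.32. That pair was therefore not separate within counting error either. The ratio in Ghr deletion replicate 1 rests on 33 reads of Tgm4, 2 of Pbsn and 5 of Tcaf3, and on the shared reads of Zdhhc3 described above. Tcaf3 to Pbsn overlapped between groups, with 2.5 and 5.68 in the deletion-labelled libraries and 0.539, 2.46 and 2.84 in the controls.

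**Figure D4:**
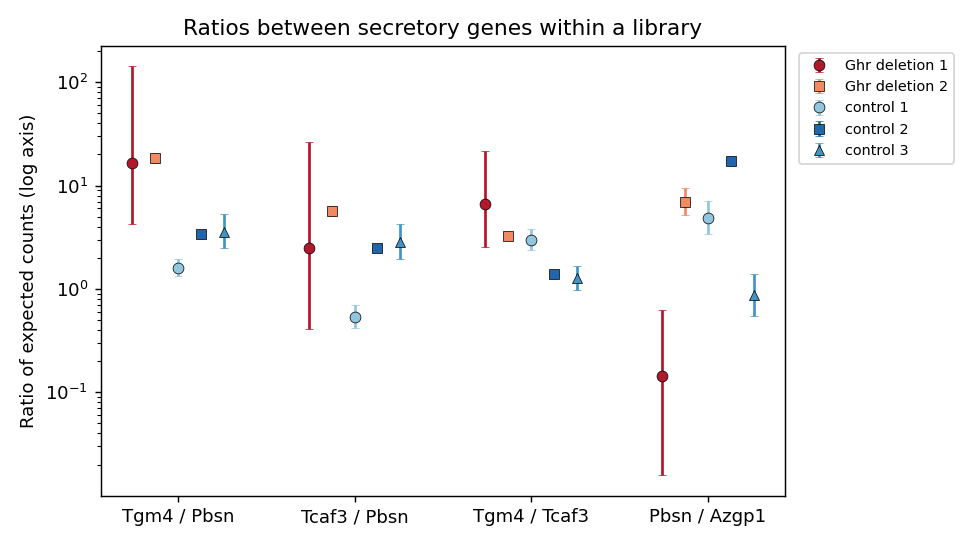
Ratio of expected counts of 4 gene pairs within each library, on a log axis, with exact 95% intervals that cover counting error only. The Tgm4 to Pbsn ratio is above 16 in both deletion-labelled libraries and under 4 in the controls. Its intervals in Ghr deletion replicate 1 and control replicate 3 overlap. The Tcaf3 to Pbsn and Pbsn to Azgp1 ratios overlap between groups.

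The patterns of the genes over the 5 libraries were compared by the root-mean-square difference between centred log2(TPM + 1) values, which is a description only. Tgm4 and Tcaf3 were the closest pair, differing by 0.509. Pbsn differed from Tcaf3 by 0.928, from Tgm4 by 1.06 and from Msmb by 1.13, and the widest difference was 2.49 between Tcaf3 and Sbp. Among 14486 other tested genes, the nearest to Pbsn (0.584), Tcaf3 (0.937) and Tgm4 (1.21) was CT010467.1, a gene that GENCODE annotates as ribosomal RNA. It had 70.4 and 590.0 TPM in the deletion-labelled libraries, against 299, 6797 and 221 TPM in control replicates 1 to 3. The next for Pbsn were Defb50 (0.908), a beta-defensin, and Npy (1.39), the neuropeptide Y gene. The next for Tgm4 and Tcaf3 were C1rb (1.23 and 1.40), a complement protease, and Snhg11 (1.56 and 1.62), a noncoding RNA. Msmb was nearest to Defb50 (0.626), Ache (0.982), which encodes acetylcholinesterase, and Uox (1.18), which encodes urate oxidase. Azgp1 was nearest to Nos1 (0.222), Fgl1 (0.258) and Tubb3 (0.295), and Sbp to Chd5 (0.147), Syt10 (0.15) and Tmem116 (0.152), where all levels were low and small differences follow from that.

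The 3 most abundant other secretions of the male tract were not ordered like these genes. Of 15 genes in this list 14 were tested, and 0 were called in either direction, with a median log2 fold change of 0.19. Without overlap of the groups 3 were higher and 1 was lower, beside 10.8% and 12.5% of all tested genes. Pate4, which the seminal vesicle also makes, had 20932 and 30450 CPM in the deletion-labelled libraries, against 21112, 10520.0 and 33092 CPM in control replicates 1 to 3. Clu, the secreted chaperone clusterin, had 6193 and 1874 CPM, against 267.2, 183.1 and 2368 CPM in the controls. Spink1, a secreted trypsin inhibitor, had 0 and 0.53 CPM, against 2937, 892 and 1.43 CPM in the controls, so it was highest in control replicate 1 rather than in control replicate 2. Defb50 is also in this list, with 0.159 and 1.31 CPM in the deletion-labelled libraries and 7.9, 89.3 and 0.948 CPM in the controls (log2 fold change -5.48, SE 2.19). It had the order of Pbsn, but it was picked above for its likeness to Pbsn and Msmb, so this order is no added evidence.

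Relatives of Tcaf3 and Tgm4 were also measured. Of 8 such genes 5 were tested and 0 were called, with a median log2 fold change of 0.09. Tgm2, the tissue transglutaminase, was even, with 116.2 and 93.1 CPM in the deletion-labelled libraries and 121.7, 66.3 and 108 CPM in the controls. Tcaf1 had 46.1 and 54.2 CPM, against 74.6, 73.1 and 46.5 CPM in the controls. Tcaf2 had 12.3 and 14.1 CPM, against 136.5, 150.5 and 12.9 CPM in the controls (log2 fold change -2.92 ± 1.03 SE; edgeR adjusted p = 0.874). Control replicate 3 was thus within the range of the deletion-labelled libraries, as for Pbsn, but control replicates 1 and 2 were alike for Tcaf2.

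Regulators of luminal cells and androgen targets gave 0 calls among 17 tested genes, with a median log2 fold change of -0.74. Without overlap of the groups 5 were lower and 1 was higher, beside 12.5% and 10.8% of all tested genes. Fkbp5, a cochaperone gene induced by androgens and glucocorticoids, had 117.6 and 133.1 CPM in the deletion-labelled libraries, against 93.4, 70.8 and 193 CPM in the controls. Gata2 had 47.9 and 43.2 CPM, against 181.8, 243.3 and 65.6 CPM in the controls, and Gata3 had 58.8 and 55.1 CPM, against 135.1, 175.2 and 68.4 CPM (log2 fold changes -1.84 and -1.15, adjusted p = 0.874 for both by edgeR). Hoxb13, a homeobox factor that marks prostate epithelium, was named after its values were seen. It had 0 and 0.227 CPM, against 0.494, 7.71 and 0 CPM in the controls. It was highest in control replicate 2.

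Luminal keratins and other general epithelial genes varied less than the secretory genes. The 12 luminal genes summed to 1357 and 1064 CPM in the deletion-labelled libraries, against 1189 to 1415 CPM in the controls, and 0 of 12 were called. Without overlap of the groups 4 of the 12 were lower and 1 was higher, beside 12.5% and 10.8% of all tested genes. At an unadjusted edgeR p under 0.05 there were 2 lower, beside 3.1% of all tested genes, and the median log2 fold change was -0.32. In TPM, where the libraries are not scaled by TMM, the same genes summed to 964.8 and 568.2, against 358.7, 145.2 and 454.4, so the groups overlapped in CPM and did not in TPM. Krt18, a luminal keratin, had 290.7 and 262.8 CPM, against 235.6, 224 and 290.5 CPM in the controls, while the 7 secretory genes summed to 1.45 and 223.4 CPM, against 48.5, 3388 and 7.04 CPM. Krt8 and Spint2, an epithelial protease inhibitor, differed by -0.21 and -0.09 on the log2 scale, with SEs of 0.28 and 0.25.

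Markers of the seminal vesicle, the gland beside the prostate whose secretions Tgm4 crosslinks, were set beside these values. Of these 8 genes 7 were lower without overlap of the groups, beside 12.5% of all tested genes, and none was at 0 in all libraries. The 8 genes summed to 84070 and 152830 CPM in the deletion-labelled libraries, against 201709 to 439766 CPM in the controls. They took 11.7% and 18.5% of counts in the deletion-labelled libraries, against 36.5%, 15.1% and 22.0% in control replicates 1 to 3. The groups were separate in summed CPM but overlapped in these shares and in summed TPM. Control replicate 1 had the highest sum, unlike for the prostate genes, but single genes differed. Svs1, Svs3a, Svs3b, Svs6 and Ceacam10 were, like Msmb, far higher in control replicates 1 and 2 than in the other libraries. Svs1 had 0.0454 and 7.9 CPM in the deletion-labelled libraries, against 32915, 22520 and 58.6 CPM in the controls. Svs2 was highest in control replicate 3. The median log2 fold change of the list was -10.05. The part of these markers in the results above was not tested. Without control replicates 1 and 2 together, a choice made after seeing the data, 0 of the prostate genes were called and their median log2 fold change was 2.92.

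Markers of other cells were compared in the same way, and 0 genes of any list were called. Counts without overlap stand beside 12.5% of all tested genes that were lower and 10.8% that were higher. Basal genes summed to 419 and 598 CPM in the deletion-labelled libraries, against 467 to 1127 CPM in the controls, with 4 of 8 lower without overlap. Proximal luminal genes summed to 195 and 91.1 CPM, against 95.4 to 184.6 CPM, with 3 of 7 tested genes higher and 1 lower without overlap and a median log2 fold change of 1.23. Fibroblast genes summed to 3239 and 1427 CPM, against 916 to 2583 CPM, and smooth muscle genes to 6360.0 and 6750.1 CPM, against 2344 to 7680.4 CPM, where control replicate 2 was lowest for both. Skeletal muscle genes summed to 103 and 143 CPM, against 90.7 to 329 CPM, and urothelial genes to 48.9 and 96.1 CPM, against 21.2 to 59.8 CPM, with Upk3a at 0 in all libraries. Immune genes summed to 120.4 and 61.7 CPM, against 58.6 to 113 CPM, and endothelial genes to 148 and 95.2 CPM, against 76.9 to 119 CPM. Adipocyte genes summed to 15.9 and 4.92 CPM, against 1.18 to 2.51 CPM in the controls. Of the tested genes 6 of 6 were higher without overlap, beside 10.8% of all tested genes. That count is largely set by the low-count filter, so it is a description only. Adipoq, Plin1, Cidec and Lep had at most 0.198 CPM in any control and passed the filter only through the deletion-labelled libraries. Retn did not pass, and its groups overlapped, with 0.749 and 0.101 CPM against 0, 0 and 0.154 CPM in the controls. The part of these lists in the results was not tested.

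**Figure D5:**
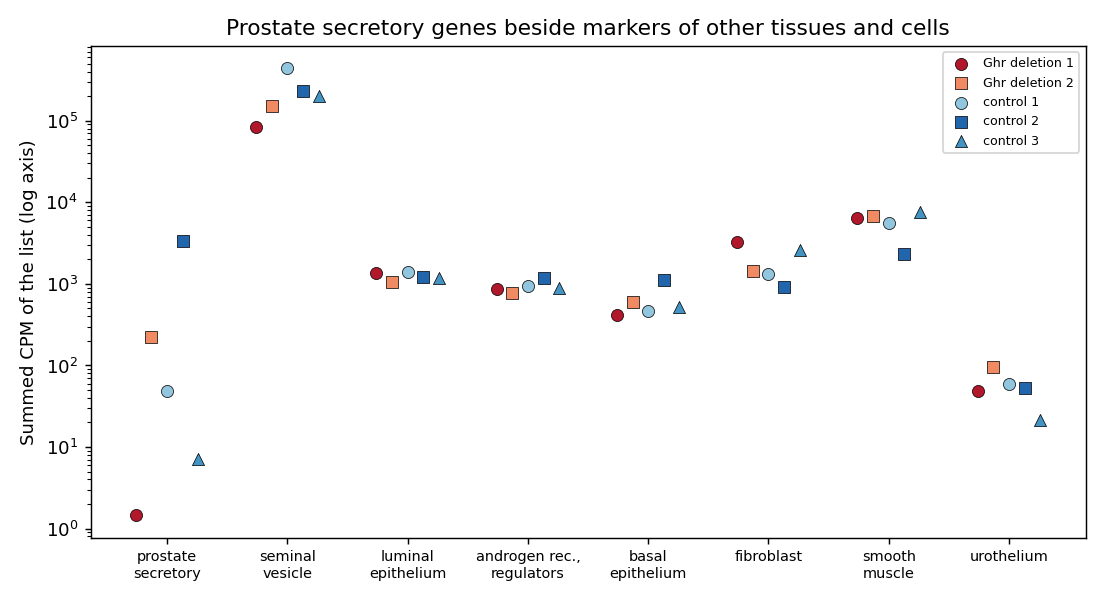
Summed CPM of the prostate secretory genes and of 7 marker lists in each library, on a log axis. The prostate secretory sum runs from 1.45 to 3388 CPM while the luminal epithelium sum stays between 1064 and 1415 CPM.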

How the data were processed

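Libraries were prepared from total RNA of frozen dorsolateral prostate with a TruSeq Stranded Total RNA kit (per the labels). Per the submitters' processing notes, the tools include bcl2fastq 2.20.422, RSEM 1.3.0 and STAR 2.5.3a, and the build is GRCm38. Neither the annotation release nor whether counting used strand is stated in those sources. The authors deposited, per the file headers, expected counts, TPM and effective lengths from RSEM, 1 table per sample. Expected counts share ambiguous reads between genes by a model. Replicates are biological replicates per the labels, and p-values measure the spread between these samples.

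Expected counts were rounded, filtered with filterByExpr by group, scaled by TMM and tested in R 4.3.3 with edgeR 4.0.16 (quasi-likelihood, group as the only term), Benjamini-Hochberg over 18590 genes, threshold 0.05. Standard errors came from the log2 fold change and its F statistic. CPM uses the TMM-scaled library size. Symbols were matched for 99.5% of identifiers, and coordinates are from GENCODE M21 on GRCm38. Transcripts were compared with BLAST 2.17.0. The step was checked on simulated counts.

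The genes and lists were chosen with earlier results of these data known. All 7 genes are named, with the 3 most abundant genes of the lists nearest to them and the 3 genes nearest in pattern to each (other than predicted genes and pseudogenes). The rule also takes the 3 most abundant genes of every other list. Those lists are given here as counts and sums, apart from a few genes named after their values were seen. Alternatives were RLE scaling, library size only, no low-count filter, DESeq2 1.42.0, limma-trend of limma 3.58.1 on log2(TPM + 1) or log2(TPM + 0.1), removal of the 20 genes with the most counts, leaving out each library, and the replicate number as a block. Counts of genes by library order in TPM, and the common Tgm4 effective length, were added after seeing the data. The same counts in CPM, with cutoffs of 10 and 5 times, were not among the planned comparisons. Floors of 3 counts and intervals cover counting error only.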

Additional observations from a re-analysis of the deposited data

How the results depend on the processing

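The 6 tested genes gave 0 calls under RLE scaling, library size only, no low-count filter, DESeq2, limma-trend on log2(TPM + 1) with no filter, removal of the 20 genes with the most counts, and leaving out each library. Limma-trend on log2(TPM + 1) called 1 higher (Sbp) and 1 lower (Msmb), beside 2234 higher and 60 lower of all 18590 tested genes. On log2(TPM + 0.1) it called 1 higher (Sbp) and 2 lower (Msmb and Pbsn), beside 686 higher and 47 lower. Those scales moved the median of all genes to 0.87 and 1.33, or 0.40 with no filter, and library size only moved it to 0.58. Tgm4 was then at 0.09, 0.05 and 0.09 on the TPM scales, above 0 but below each of those medians, while Sbp was at 0.66, 1.90 and 0.66, below the median in the first and above it in the others.

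Leaving out 1 library gave a median log2 fold change of the genes from -10.57 to 1.11, and values from -9.48 to 3.00 for Tgm4, -11.69 to 2.62 for Tcaf3 and -0.98 to 5.04 for Sbp. The highest of each came without control replicate 2 and the lowest without Ghr deletion replicate 2. Without control replicates 1 and 2 together, added after seeing the data, 1 control is assumed to vary like the other libraries, and the median was 2.92. Pbsn, Msmb, Tgm4 and Tcaf3 then had 2.42, 2.19, 4.79 and 3.42, while Azgp1 stayed below 0 at -0.24. For Sbp the remaining control held 0 reads, so no fold change is given.

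The replicate numbers are shared by both groups only for replicates 1 and 2, and nothing in the labels says that a number marks a shared litter or day. Deviations from the group means correlated at 0.30 and 0.26 over genes in the same-numbered pairs, and at -0.26 and -0.30 in the crossed pairs. The deviations of the 2 deletion-labelled libraries mirror each other, so the crossed values are the same figures with the sign changed. These values are therefore not separate evidence of pairing. The replicate number as a block leaves 1 residual degree of freedom and takes no group difference from control replicate 3. With it 0 of the genes were called higher and 5 lower, beside 552 higher and 574 lower of all 18590 tested genes. The 5 were Pbsn, Msmb, Tgm4, Tcaf3 and Azgp1, with log2 fold changes of -6.17, -8.32, -3.85, -4.85 and -3.79.

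Over all genes the counts of higher and lower calls were 0 and 0 in the main test, 552 and 574 with the block, 20 and 61 by DESeq2, 2234 and 60 on log2(TPM + 1), 686 and 47 on log2(TPM + 0.1), and 2 and 0 with no low-count filter. Leaving out 1 library gave 0 to 15 higher and 0 to 33 lower, the highest of each without control replicate 3. The causes of these differences were not tested. With 2 against 3 libraries, and 0 to 5 reads of several genes in Ghr deletion replicate 1, differences smaller than these intervals were not detectable.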
